A study of Mus musculus with 6 samples.

Results

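The sarcomere is the contractile unit of striated muscle, and 36 of the 53801 genes counted in this series were taken from a list of its components and of genes that go with it. They were the cardiac and skeletal isoforms of myosin, actin, troponin and alpha-actinin, proteins of the Z-disc and M-band, both natriuretic peptides and the myogenic regulatory factors. They were found by gene symbol, and all 36 had a row in the count tables. The cells were ciCPCs, cardiovascular progenitors obtained by chemical reprogramming of mouse fibroblasts and then expanded, and their RNA was sequenced in 3 libraries at passage 20 and 3 at passage 3. Cells of both passages were wild type with C57BL/6 mixed with 129J/SvE as background, came from colonies picked on day 14 of reprogramming, and grew in basal medium with BMP4, Activin A, CHIR99021 and SU5402. The labels do not say whether both passages, or the libraries of a passage, came from the same colony or from separate cultures. Passage cannot be told apart from culture or library batch here. The p-values reflect spread among the 6 libraries alone, and that spread may be technical.

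In a sarcomere, thick filaments of myosin pull on thin filaments of actin, whose access is set by calcium through the troponin complex (troponin C binds calcium, troponin I inhibits, troponin T anchors the complex to tropomyosin). Thin filaments are anchored at the Z-disc by alpha-actinin, thick filaments are held at the M-band, and titin spans from one to the other. Heart, slow skeletal and fast skeletal muscle differ in the genes used for many of these proteins, and embryonic muscle uses yet others. Heart and slow muscle share several, among them Tnnc1 and Myl3. The isoforms in use therefore tell striated muscles apart only in part. In progenitors that have not differentiated these genes are usually little expressed. The comparison asked how sarcomere transcripts of the cardiac and of the skeletal kind stood in the expanded progenitors at a late passage against an early one.

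Libraries held 11387738 to 13285419 counts in genes at passage 20 and 13995799 to 17721788 at passage 3. Levels are CPM, counts relative to library size scaled by trimmed-mean (TMM) factors, and CPM per kilobase of exon where genes are set against each other. Passage 20 replicate 3 stood apart from its group: a chi-square statistic over genes, per degree of freedom, was 10.6 and 8.72 against the other passage 20 libraries, and 1.75 to 2.63 among the other pairs of the same passage. The passages differed in most of the transcriptome, with 74.3% of 15143 tested genes called at an adjusted p under 0.05 (37.0% higher and 37.3% lower at passage 20, quasi-likelihood test of edgeR, Benjamini-Hochberg adjustment). Scaling by library sizes only shifted the median log2 change over all genes to -0.342, against -0.0118 with TMM factors, and 29.9% of calls were then higher, against 49.8%. Small changes are therefore relative to the TMM scaling.

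Sarcomere transcripts were scarce at both passages. Their 36 genes together took 151, 161 and 162 CPM at passage 20, against 147, 149 and 149 CPM at passage 3. Without TMM factors they took 0.0132% to 0.0148% of all counts at passage 20, against 0.0166% to 0.0167% at passage 3, so the order of the sums depends on the scaling. Between 16 and 17 of the 36 lay under 1 CPM in each passage 20 library, and 18 or 19 in each passage 3 library. For comparison the non-muscle actin gene Actb averaged 874 ± 53.1 CPM at passage 20 and 1268 ± 14.8 CPM at passage 3 (SD, n = 3 each). In bulk RNA, a few cells with much of a transcript and many cells with little of it cannot be told apart.

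The labelled cell type, cardiac progenitors, was checked against its markers. The 9 progenitor markers listed (Isl1, Nkx2-5, Mef2c, Gata4, Tbx5, Kdr, Pdgfra, Mesp1 and Hand2) had counts at both passages and summed to 642 to 712 CPM at passage 20 and 761 to 785 CPM at passage 3. Pdgfra was also on the list of fibroblast genes used below, and Kdr on that of endothelial genes. The 11 fibroblast genes summed to 31800 to 38070 CPM at passage 20 and 16030 to 16840 CPM at passage 3, so the progenitor sums do not settle the cell type. Of the 9 progenitor markers, 5 were higher and 4 lower at passage 20, beside 37.0% and 37.3% of all tested genes. They ran from Mesp1 (14.0-fold higher, 2.23 ± 0.918 CPM at passage 20 and 0.146 ± 0.0966 CPM at passage 3, SD, n = 3 each) to Isl1 (8.44-fold lower, 7.43 ± 0.533 CPM at passage 20 and 63.1 ± 5.71 CPM at passage 3). Nkx2-5, Mef2c, Gata4 and Hand2 were the others that were higher (4.57-fold, 2.68-fold, 1.70-fold and 1.18-fold), and Pdgfra, Tbx5 and Kdr the others that were lower (2.45-fold, 1.66-fold and 1.22-fold). Means of the listed cardiac filament and natriuretic peptide genes ranged from 0 to 21.0 CPM (Actc1 at passage 20). Some genes outside these groups that the heart also uses were higher. Tnni1, grouped as skeletal, averaged 29.1 CPM at passage 20 and 17.7 CPM at passage 3. Hspb7 averaged 95.1 and 20.4 CPM, and Atp2a2 244 and 333 CPM, in the same order. The genes of the chamber regulatory light chains and of atrial natriuretic peptide were at or near 0. Myl4, the light chain of atrium and embryonic muscle, was not, at a mean of 9.01 CPM at passage 20 and 6.34 CPM at passage 3. Myl2, the ventricular regulatory light chain, had 0 counts in all 6 libraries. Nppa, atrial natriuretic peptide, had 1 count at passage 20 and 3 at passage 3, and Myl7, the atrial regulatory light chain, had 10 at each. A count of 0 allows up to 3 counts, which are 0.246 to 0.298 CPM in a passage 20 library and 0.151 to 0.190 CPM in a passage 3 library, counting error only.

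Of the 36 genes, 22 passed the low-count filter, and among these 10 were higher, 5 lower and 7 did not pass the test. Together 15 of 22 were called, 68.2%, beside 74.3% of all tested genes, so the list was called about as often as the transcriptome at large. The 3 libraries of one passage did not overlap with those of the other in 17 of the 22, beside 77.5% of all tested genes. The fitted log2 fold changes ran from -4.20 (Myh8) to 2.49 (Acta1). At least 2-fold calls were 7 higher and 3 lower, beside 13.4% and 14.3% of all tested genes. A gene can pass the filter through the passage in which it is high, so the 22 do not stand for the 36. Without passage 20 replicate 3 there were 12 higher and 4 lower.

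**Figure D1:**
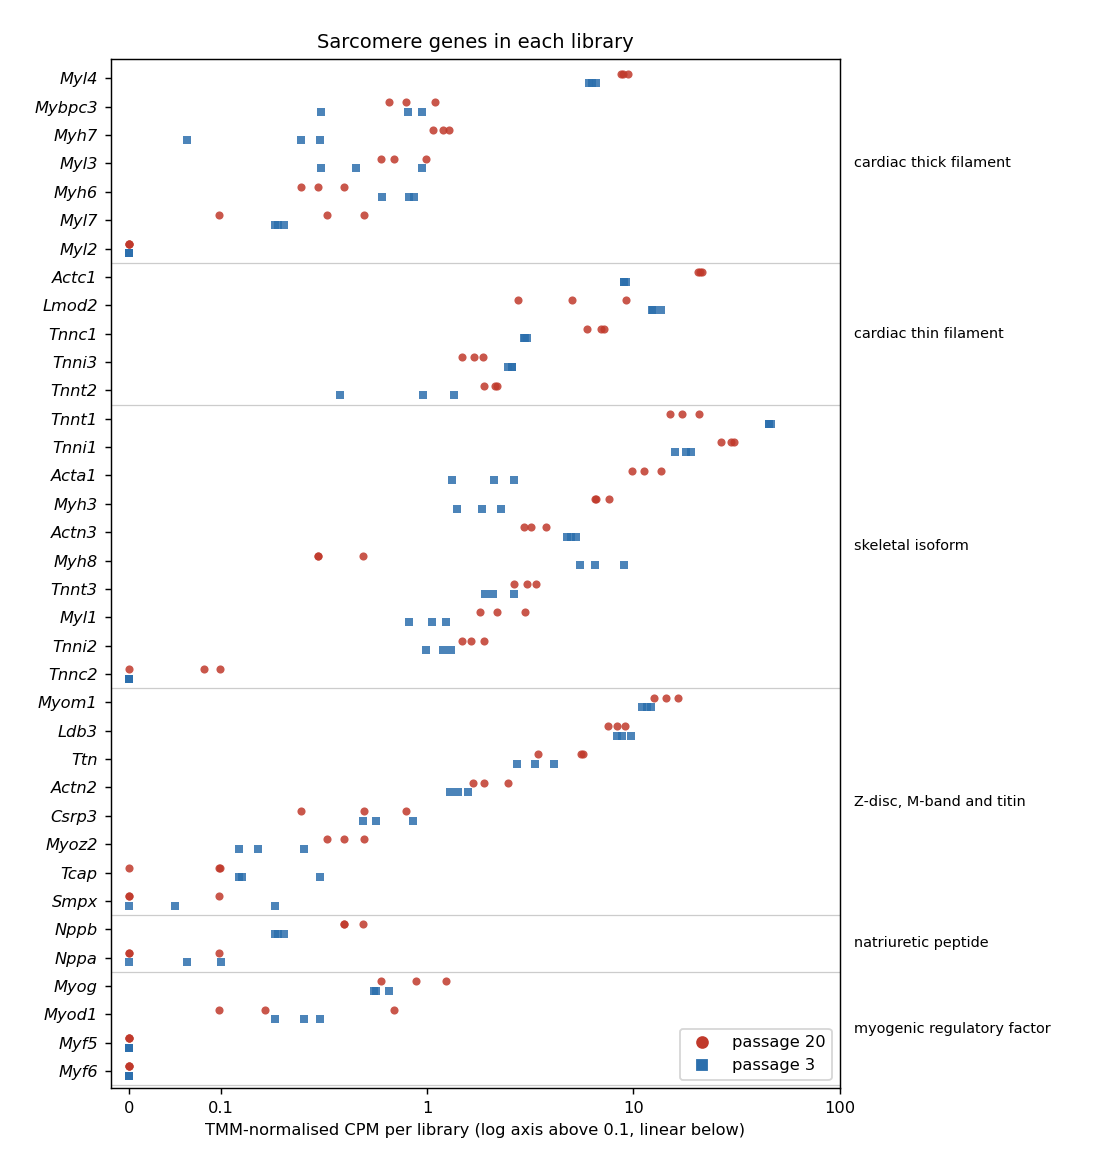
TMM-normalised CPM of the 36 sarcomere genes in each library, grouped by role, with passage 20 as red circles above passage 3 as blue squares; the axis is logarithmic above 0.1 CPM and linear below. Tnnt1 at passage 3 has the highest points (45.2 to 46.2 CPM), Myh8 shows the widest gap, and Myl2, Myf5 and Myf6 sit at 0 in every library.

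**Figure D2:**
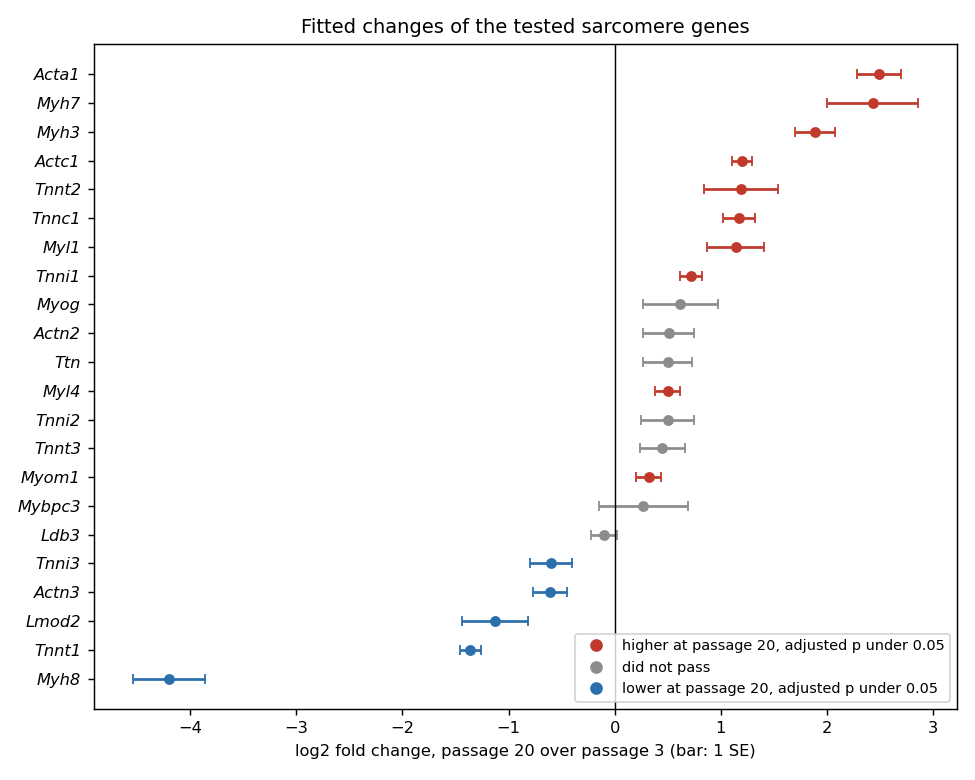
Fitted log2 fold change (passage 20 over passage 3) of the 22 tested sarcomere genes, with bars of 1 SE; red points were called higher, blue points lower, and grey points did not pass. Acta1, Myh7 and Myh3 lie farthest to the right and Myh8 farthest to the left, at -4.20.

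Both striated actins rose. Actc1, cardiac alpha-actin, the main actin of the heart and an early actin of embryonic muscle (ENSMUSG00000068614, chromosome 2, 114047282 to 114053548, GRCm38), had 20.5, 21.5 and 21.0 CPM at passage 20, against 9.04, 9.04 and 9.23 CPM at passage 3. Acta1, skeletal alpha-actin (ENSMUSG00000031972, chromosome 8, 123891769 to 123894751), had 13.6, 11.2 and 9.85 CPM at passage 20, against 1.33, 2.64 and 2.12 CPM at passage 3. Every passage 20 library was above every passage 3 library for each gene. Actc1 was 2.30-fold higher (log2 1.20, SE 0.09, adjusted p = 4.24e-07) and Acta1 5.63-fold higher (log2 2.49, SE 0.21, adjusted p = 1.36e-06, edgeR's quasi-likelihood test). The coding sequences of the pair are 86.2% identical, with 29 bases as the longest shared run, so a read can in part match both. The handling of such reads is not stated in the sources used.

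Against the other actins the striated pair stayed small. Per kilobase, Actc1 made up 1.061 ± 0.0239% of the signal of the 6 actin genes at passage 20 and 0.467 ± 0.0157% at passage 3 (SD, n = 3 each). Acta1 made up 0.615 ± 0.103% at passage 20 and 0.110 ± 0.0365% at passage 3. The rest came from the smooth muscle and non-muscle actins. Acta2, smooth muscle actin, was at 786 ± 15.03 CPM at passage 20 and 794 ± 30.5 CPM at passage 3 and did not pass (adjusted p = 0.796, edgeR).

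Promoters of 5 genes are shown, those of the striated actins, which rose, and those of Tnnt1, Lmod2 and Myh8, the 3 listed genes called at least 2-fold lower. Each line gives the 150 bases before the RefSeq start site on GRCm38.p6, 5′ to 3′. Capitals mark matches, on either strand, to the E-box CANNTG (the letters bound by myogenic regulatory factors and many related proteins), to the CArG box (bound by serum response factor) or to the MEF2 motif.
Actc1 (chr2:114052876-114053025, minus strand): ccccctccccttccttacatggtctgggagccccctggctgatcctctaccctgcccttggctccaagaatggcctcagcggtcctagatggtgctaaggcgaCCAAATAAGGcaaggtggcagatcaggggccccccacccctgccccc
Acta1 (chr8:123894776-123894925, minus strand): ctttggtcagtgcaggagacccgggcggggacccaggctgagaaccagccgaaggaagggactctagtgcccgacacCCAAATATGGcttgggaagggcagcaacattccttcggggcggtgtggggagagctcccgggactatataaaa
Tnnt1 (chr7:4515976-4516125, minus strand): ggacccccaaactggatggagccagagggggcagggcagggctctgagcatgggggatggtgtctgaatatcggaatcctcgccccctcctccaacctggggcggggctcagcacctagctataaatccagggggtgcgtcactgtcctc
Lmod2 (chr6:24597621-24597770, plus strand): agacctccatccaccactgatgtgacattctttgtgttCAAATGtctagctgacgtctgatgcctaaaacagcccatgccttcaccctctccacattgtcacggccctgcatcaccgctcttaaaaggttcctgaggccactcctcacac
Myh8 (chr11:67276974-67277123, plus strand): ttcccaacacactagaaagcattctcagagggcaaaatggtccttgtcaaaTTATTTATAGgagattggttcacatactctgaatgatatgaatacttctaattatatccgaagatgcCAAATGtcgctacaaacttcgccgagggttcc
The capitals in Actc1 and Acta1 are CArG boxes, which begin 47 and 73 bases before the start. Those in Myh8 are a MEF2 motif and, downstream, an E-box, and those in Lmod2 are an E-box, while the Tnnt1 stretch holds none of the 3 motifs. No motif in these lines overlaps another. Over the 250 bases before the start, 30 of the 36 genes had a promoter in the table. A CArG box was present in 6 of them (Actc1, Acta1, Myom1, Myl3, Myl7 and Ldb3), beside 1.47% of all 32851 promoters. A MEF2 motif was present in 4 (Ttn, Mybpc3, Myoz2 and Myh8), beside 2.92%, and an E-box in 25, beside 66.2%. A gene with several start sites was counted if any of them had the motif. A CArG box was in the promoters of 3 of the 10 genes called higher, 0 of 4 called lower and 3 of 16 not called or not tested. A match describes letters only, and no match says only that the letters are not in that window.

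Troponin I and troponin T genes lie in the mouse genome as 3 neighbouring pairs, each with a gene for troponin I and a gene for troponin T, and the pairs were set side by side after their values had been seen. Both genes of the chromosome 1 pair rose, both genes of a chromosome 7 pair fell, and the pair of fast skeletal genes did not pass. Tnni1, the slow skeletal troponin I that the fetal heart also uses (chromosome 1, 135779434 to 135810989), had 26.6, 29.8 and 30.9 CPM at passage 20, against 18.02, 15.9 and 19.1 CPM at passage 3. It was 1.64-fold higher (log2 0.72, SE 0.10, adjusted p = 4.43e-05, edgeR), with no overlap of the passages. Its neighbour Tnnt2, cardiac troponin T (chromosome 1, 135836354 to 135852260), 25.4 kb away with Lad1 between them, had only 22, 19 and 26 counts at passage 20, against 6, 22 and 19 at passage 3. Scaled, these were 1.89 to 2.17 CPM at passage 20 and 0.379 to 1.353 CPM at passage 3, 2.28-fold higher (log2 1.19, SE 0.35, adjusted p = 0.00942, edgeR). Lad1, between the pair, did not pass (log2 -0.11, adjusted p = 0.804, edgeR).

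The second pair fell. Tnnt1, slow skeletal troponin T (ENSMUSG00000064179, chromosome 7, 4504570 to 4516382), was the member with the most counts. It had 17.2, 15.1 and 20.7 CPM at passage 20, against 45.2, 46.2 and 45.3 CPM at passage 3, 2.57-fold lower (log2 -1.36, SE 0.10, adjusted p = 3.64e-07, edgeR). All passage 20 libraries were well below the narrow range of passage 3. Tnni3, cardiac troponin I (chromosome 7, 4518305 to 4524229), has its gene body 1.92 kb from that of Tnnt1 and had 1.48 to 1.88 CPM at passage 20, against 2.47 to 2.58 CPM at passage 3. It was 1.52-fold lower (log2 -0.60, SE 0.20, adjusted p = 0.0192, edgeR), a call that was lost in DESeq2 (adjusted p = 0.136), without passage 20 replicate 3 (0.0635) and without passage 3 replicate 3 (0.0549). Tnni3 shares 86 exon bases with Dnaaf3 on the same strand, which moved the other way (log2 1.90).

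The third pair holds the fast skeletal genes, 54.4 kb apart with Lsp1 between them. Tnni2 (chromosome 7, 142441808 to 142444410) was at 1.67 ± 0.203 CPM at passage 20 and 1.17 ± 0.167 CPM at passage 3, with log2 0.50 and adjusted p = 0.0844 (edgeR, n = 3 each). Tnnt3 (chromosome 7, 142498836 to 142516009) was at 3.02 ± 0.376 CPM at passage 20 and 2.22 ± 0.380 CPM at passage 3, with log2 0.45 and adjusted p = 0.0721 (edgeR, n = 3 each). Neither passed, although Tnnt3 did without passage 20 replicate 3 (adjusted p = 0.0374) and without passage 3 replicate 2 (0.0498). With 3 pairs, a like sign within each pair is a description and was not tested.

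Of the calcium-binding subunits, Tnnc1, shared by heart and slow muscle (chromosome 14, 31208312 to 31211729), had 5.93, 6.95 and 7.22 CPM at passage 20, against 3.04, 2.95 and 2.98 CPM at passage 3. The passages did not overlap, and it was 2.25-fold higher (log2 1.17, SE 0.15, adjusted p = 3.28e-05, edgeR). The far more abundant gene Nisch overlaps its gene body on the opposite strand (1128 CPM at passage 20 and 989.9 CPM at passage 3) without sharing annotated exon bases, and whether counting used strand is not stated in the sources used. Tnnc2, the fast skeletal form, had 2 counts at passage 20 and 0 at passage 3, and most of its exon bases overlap Ube2c on the opposite strand.

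Slow skeletal isoforms made up most of the troponin T and I signal per kilobase at both passages. Tnnt1 held 78.3 ± 4.35% of troponin T at passage 20 and 93.2 ± 1.11% at passage 3 (SD, n = 3 each). Cardiac Tnnt2 held 2.62 ± 0.184% at passage 20 and 0.518 ± 0.274% at passage 3, and fast Tnnt3 19.0 ± 4.24% at passage 20 and 6.29 ± 0.922% at passage 3. For each of the 3 genes the libraries of the passages did not overlap. Within troponin I, Tnni1 held 80.7 ± 1.64% at passage 20 and 70.9 ± 0.910% at passage 3. Cardiac Tnni3 held 8.20 ± 1.48% at passage 20 and 17.9 ± 1.64% at passage 3, also without overlap, while fast Tnni2 held 11.1 ± 0.903% at passage 20 and 11.2 ± 0.746% at passage 3. The share of the adult cardiac isoform was thus higher at passage 20 for Tnnt2 and lower for Tnni3. The fall in troponin I depends on counting Tnni1, which the fetal heart also uses, as skeletal only. That grouping was made after its value had been seen. With Tnni1 counted as cardiac, only Tnni2 would be left outside, at 11.1% at passage 20 and 11.2% at passage 3. These shares depend on the exon lengths used and carry no test.

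**Figure D3:**
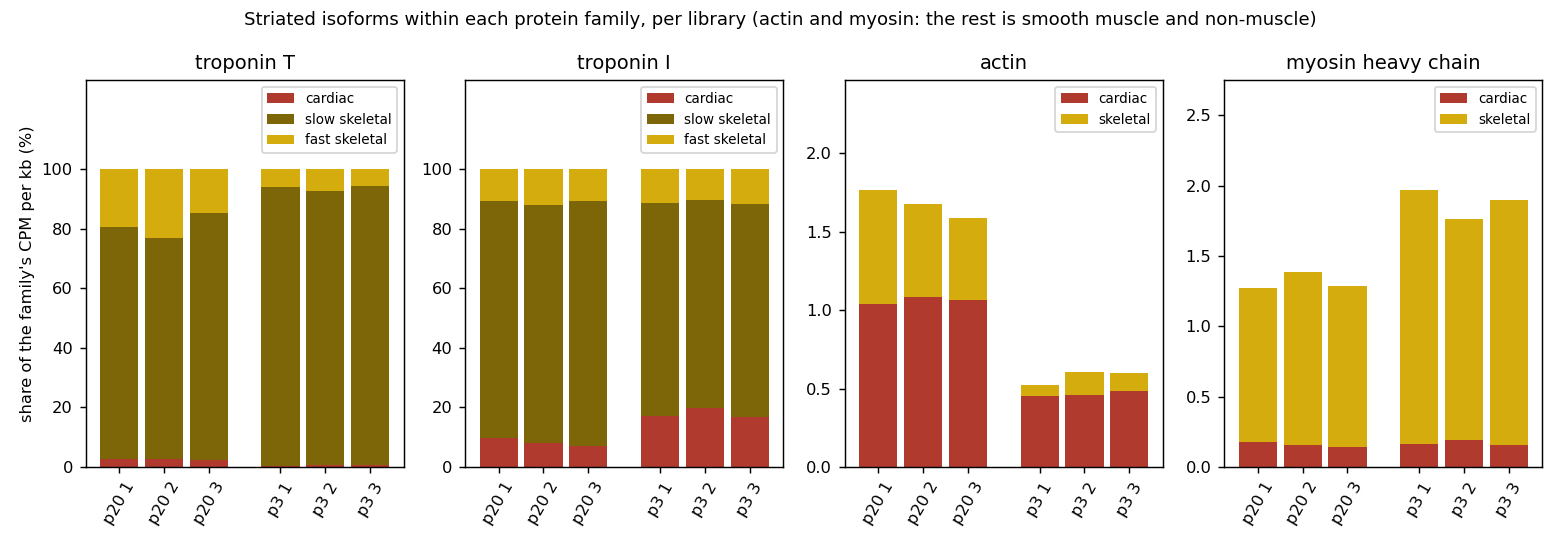
Share of each family's CPM per kilobase held by its cardiac and skeletal isoforms, 1 bar per library, passage 20 libraries (p20) left of passage 3 libraries (p3); in actin and myosin heavy chain the remainder up to 100% is smooth muscle and non-muscle and is not drawn. Slow skeletal troponins fill most of both troponin families, and the striated share of actin is larger at passage 20. The share of the striated myosin heavy chains counted is smaller at passage 20, but Myh7b, which rose, was left out.

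Lmod2, leiomodin 2, which nucleates and lengthens thin filaments in the heart (chromosome 6, 24597762 to 24605414), fell. It had 2.77, 5.06 and 9.19 CPM at passage 20, against 12.5, 13.7 and 12.3 CPM at passage 3, 2.19-fold lower (log2 -1.13, SE 0.31, adjusted p = 0.0116, edgeR). The passage 20 libraries spread over more than 3-fold, with replicate 3 the highest, but stayed under passage 3. Without passage 20 replicate 3 the log2 change was -1.72, and without passage 20 replicate 1 it was -0.816, both still called.

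Among myosin heavy chains, the embryonic and the perinatal skeletal genes moved in opposite directions. Myh3, embryonic myosin heavy chain (chromosome 11, 67078300 to 67102291), had 6.52, 7.64 and 6.57 CPM at passage 20, against 1.39, 1.84 and 2.27 CPM at passage 3, 3.70-fold higher (log2 1.89, SE 0.19, adjusted p = 5.02e-06, edgeR). Myh8, perinatal myosin heavy chain (chromosome 11, 67277124 to 67308634), had 0.296, 0.298 and 0.492 CPM at passage 20, against 9.04, 6.52 and 5.50 CPM at passage 3, 18.4-fold lower (log2 -4.20, SE 0.34, adjusted p = 7.39e-07, edgeR). In counts this is 12 over all passage 20 libraries, against 358 over the passage 3 libraries. Neither gene's passages overlapped.

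Both genes belong to a cluster of skeletal myosin heavy chains on chromosome 11, and the adult fast genes lie between them. Myh4 was 4.43-fold lower at passage 20 (12 counts, against 87 at passage 3, adjusted p = 9.44e-05, edgeR). Myh2 had 1 count at passage 20 and 14 at passage 3, a pooled fold of 8.74 lower (95% counting interval 1.33 to 369). Myh1 had 0 counts at passage 20 and 19 at passage 3, at least 3.95-fold lower against a floor of 3 counts over the group. Myh13, in the same family and on the far side of Myh8, had 18 counts at passage 20 and 34 at passage 3, a pooled ratio of 0.849 with an interval of 0.451 to 1.55. Coding sequences of Myh3 and Myh8 are 80.8% identical with a longest shared run of 77 bases, so reads could in part be split between members of the cluster.

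The cardiac heavy chains, an adjacent pair, had few counts. Myh7, the slow or beta form (chromosome 14, 54970684 to 54994626), had 13, 12 and 13 counts at passage 20, against 1, 4 and 6 at passage 3. It was 5.37-fold higher (1.18 ± 0.109 CPM at passage 20 and 0.204 ± 0.125 CPM at passage 3, SD, n = 3 each, log2 2.43, adjusted p = 0.000349, edgeR). Myh7 passed the low-count filter only through passage 20, where it was high. It was not tested when the filter asked for at least 1 CPM in 3 libraries. Myh6, the fast or alpha form, 3.76 kb away, had 4, 3 and 3 counts at passage 20, against 13, 14 and 12 at passage 3, and did not pass the low-count filter. Its pooled ratio was 0.411 (95% counting interval 0.183 to 0.838), and it was called lower when no filter was applied (log2 -1.29) but not by DESeq2. The coding sequences of both genes are 91.7% identical with a shared run of 245 bases, so the split between them is uncertain. Together the cardiac pair held 0.159 ± 0.0164% of the myosin heavy chain signal per kilobase at passage 20 and 0.170 ± 0.0205% at passage 3, and the skeletal genes 1.16 ± 0.0708% at passage 20 and 1.71 ± 0.123% at passage 3. Myh7b, a further striated heavy chain gene, was left out of this family. It was higher at passage 20 (13.7 CPM, against 3.98 CPM at passage 3), so the total striated share was not measured.

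Of the myosin light chains, Myl4 and Myl1 rose. Myl4, the light chain of atrium and embryonic muscle (chromosome 11, 104550663 to 104595753), had 9.39, 8.93 and 8.70 CPM at passage 20, against 6.32, 6.09 and 6.61 CPM at passage 3. It was 1.42-fold higher (log2 0.50, SE 0.12, adjusted p = 0.00246, edgeR) without overlap, but not called with library sizes only (log2 0.172, adjusted p = 0.201). Myl1, the fast skeletal light chain, was at 2.32 ± 0.5995 CPM at passage 20 and 1.04 ± 0.205 CPM at passage 3 (SD, n = 3 each), 2.20-fold higher (adjusted p = 0.00293, edgeR). Myl3, the ventricular and slow skeletal form, had 25 counts at passage 20 and 29 at passage 3, a pooled ratio of 1.38 (95% counting interval 0.776 to 2.44), and shares exon bases with Pth1r on the opposite strand. Mybpc3, cardiac myosin binding protein C, had 27 counts at passage 20 and 36 at passage 3 (log2 0.27, adjusted p = 0.580, edgeR).

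Of the 8 genes of the Z-disc, the M-band and titin, 4 were tested, and 1 of these rose while 3 did not pass, beside 74.3% called over all tested genes. Myom1, myomesin of the M-band (chromosome 17, 71002633 to 71126856), had 12.6, 16.5 and 14.4 CPM at passage 20, against 11, 12.2 and 11.6 CPM at passage 3. It was 1.25-fold higher (log2 0.32, SE 0.12, adjusted p = 0.0278, edgeR) with ranges that just failed to meet, and this call was lost in DESeq2 (0.108), with no low-count filter (0.0516), with library sizes only (log2 -0.011) and without any 1 of 4 libraries (adjusted p 0.0525 to 0.126). Its exons share 207 bases with Myl12a on the opposite strand, which averaged 335 CPM at passage 20 and 244 CPM at passage 3. Ldb3, a Z-disc protein also called ZASP or Cypher, stood at 8.34 ± 0.812 CPM at passage 20 and 8.96 ± 0.701 CPM at passage 3 (SD, n = 3 each, log2 -0.10, adjusted p = 0.476, edgeR), and was called lower only with library sizes only (log2 -0.431).

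Titin (Ttn), the largest of these proteins, stood at 4.91 ± 1.27 CPM at passage 20 and 3.39 ± 0.712 CPM at passage 3 (SD, n = 3 each) and did not pass (log2 0.50, adjusted p = 0.0661, edgeR). It passed without passage 20 replicate 3 (log2 0.698, adjusted p = 0.00122), without passage 3 replicate 3 (0.0433) and with no low-count filter (0.0410). Per kilobase of its long exons it was near the bottom of the list, at 0.0421 CPM per kb at passage 20 and 0.0290 CPM per kb at passage 3. Of the alpha-actinins, Actn2 of heart and skeletal muscle stood at 2.01 ± 0.405 CPM at passage 20 and 1.43 ± 0.146 CPM at passage 3 (adjusted p = 0.0743, edgeR, n = 3 each). Actn3, the fast skeletal form, fell 1.52-fold, to 3.30 ± 0.413 CPM at passage 20 against 4.99 ± 0.253 CPM at passage 3 (adjusted p = 0.00523, edgeR, SD, n = 3 each). The other Z-disc genes had too few counts for the test. Tcap, which caps titin, had 2 counts at passage 20 and 10 at passage 3. Csrp3, muscle LIM protein, had 16 counts at passage 20 and 34 at passage 3, and Myoz2, a calsarcin that binds calcineurin, 13 at passage 20 and 9 at passage 3. Smpx had 1 count at passage 20 and 4 at passage 3. Counting intervals of the pooled ratio of passage 20 over passage 3 included 1 for each of the 4, with Tcap at 0.320 (0.0342 to 1.504) and Myoz2 at 2.32 (0.916 to 6.14).

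Natriuretic peptides and myogenic regulatory factors were close to the detection limit. Nppb, brain natriuretic peptide, had 4, 4 and 6 counts at passage 20, against 3, 3 and 4 at passage 3, with a pooled ratio of 2.24 and a 95% counting interval of 0.927 to 5.65. Myf5 and Myf6 had 0 counts in all 6 libraries. Myod1 had 10 counts at passage 20, 7 of them in replicate 2, and 13 at passage 3. Myog, myogenin, which drives the late steps of skeletal differentiation, had 9, 6 and 15 counts at passage 20, against 9, 9 and 13 at passage 3 (log2 0.62, adjusted p = 0.127, edgeR). None of these 4 factors went above 1.23 CPM in any library. Of the listed skeletal isoforms, only Tnnt1 and Tnni1 reached over 10 CPM in all 6, and Tnni1 is also used by the fetal heart.

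Ordered by level per kilobase, the list changed its head. At passage 20 Actc1 led with 13.0 CPM per kb (12.6 to 13.3), followed by Tnni1 at 8.08, Tnnt1 at 8.01, Acta1 at 7.53 and Tnnc1 at 6.44. Actc1 did not overlap with the next gene, whereas neighbours from Tnni1 to Tnnc1 did not differ beyond their spread. At passage 3 Tnnt1 led with 20.7 CPM per kb (20.5 to 21.0), followed by Lmod2 at 6.47, Actc1 at 5.63, Tnni1 at 4.91, Tnnc1 at 2.87 and Actn3 at 1.72, and none of these neighbours overlapped. Acta1, at 7.53 CPM per kb at passage 20, was at 1.32 CPM per kb at passage 3, where its range overlapped those of Myl4 and Tnnt3. The leading gene of each passage lay at the mean percentile 92.2 (passage 20) and 95.6 (passage 3) of all annotated genes by this measure. Genes without a count were included, so Myf5, at 0 in every library, had a mean percentile of 29.7 at passage 20 and 28.1 at passage 3.

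**Figure D4:**
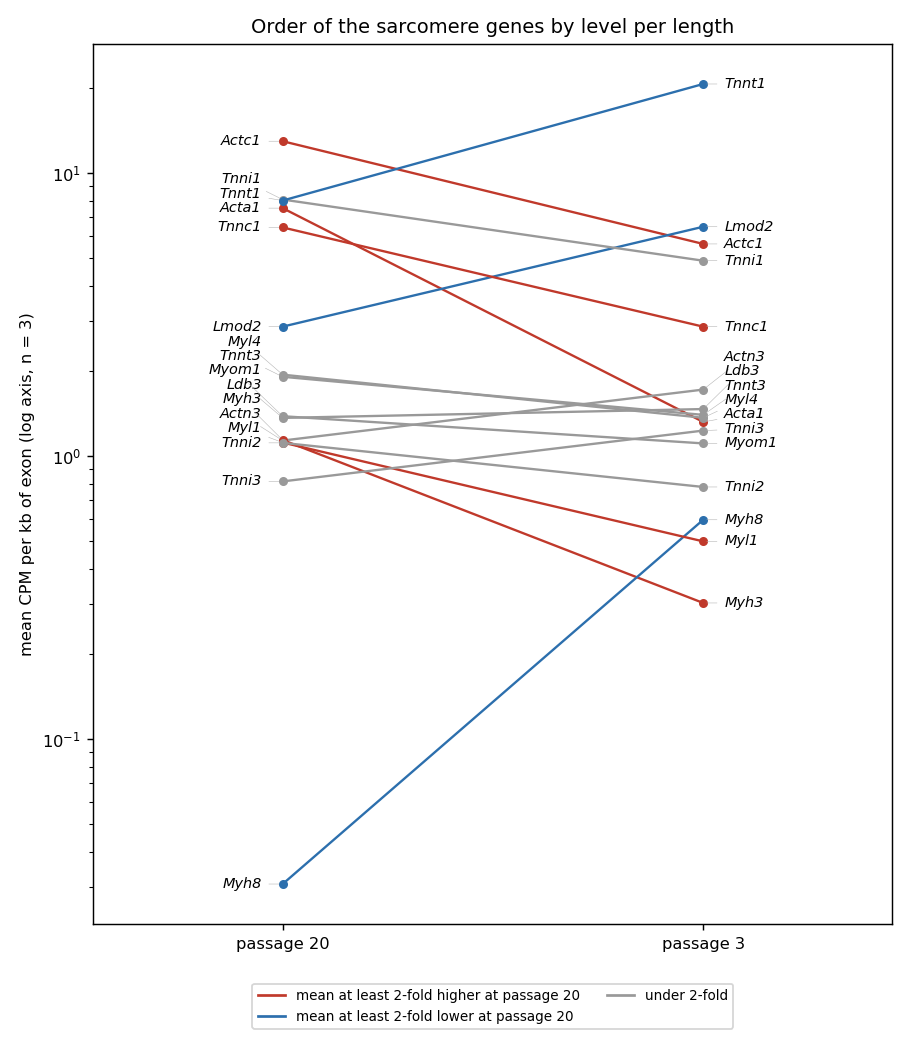
Mean CPM per kilobase of exon (log axis, n = 3 per passage) of the sarcomere genes that ranked among the leading 14 at either passage, passage 20 on the left and passage 3 on the right, with lines joining a gene. Red lines are means at least 2-fold higher and blue lines at least 2-fold lower at passage 20; Actc1 leads at passage 20 (13.0) and Tnnt1 at passage 3 (20.7).

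The calls in this list and in those that follow stand beside 37.0% higher and 37.3% lower over all tested genes, and no list was tested as a set. Other genes of the sarcomere and Z-disc moved in both directions. Of 32, 18 were tested, with 5 higher, 9 lower and 4 not called, a median log2 of -0.14 beside -0.0118 over all tested genes. Tmod1, which caps the pointed end of thin filaments, was 2.18-fold higher (48.9 ± 6.68 CPM at passage 20 and 22.5 ± 0.660 CPM at passage 3, SD, n = 3 each, adjusted p = 1.26e-06, edgeR), but shares exon bases with Tstd2 on the opposite strand. The Z-disc genes Flnc (filamin C) and Pdlim5 were 1.46-fold and 1.51-fold higher. Mybpc1, slow skeletal myosin binding protein C, fell 2.98-fold, to 4.40 ± 0.231 CPM at passage 20 against 13.0 ± 2.15 CPM at passage 3 (adjusted p = 3.85e-06, edgeR, SD, n = 3 each), and Synpo2l fell 2.82-fold. Tpm1 and Tpm2 encode tropomyosins of muscle and of other cells. Tpm1 averaged 597 CPM at passage 20 and 635 CPM at passage 3 and did not pass, and Tpm2 fell 1.22-fold.

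Among 17 genes of sarcomere assembly and turnover, 12 were tested, of which 7 were higher, 3 lower and 2 not called (median log2 0.49). Hspb7, a small heat shock protein that binds thin filaments of heart, rose 4.65-fold, to 95.1 ± 10.1 CPM at passage 20 against 20.4 ± 2.82 CPM at passage 3. Cavin4, a caveola protein of muscle, rose 8.17-fold, to 13.8 ± 2.24 CPM at passage 20 against 1.70 ± 0.445 CPM at passage 3. Trim63, the ubiquitin ligase MuRF1 that acts in muscle breakdown, fell 2.31-fold, and Unc45a, the general form of a myosin chaperone, fell 2.26-fold. For these 4 genes edgeR's adjusted p was at most 2.78e-06 (n = 3 per passage). Unc45b, the muscle form of that chaperone, had fewer counts and was 5.13-fold higher (0.922 ± 0.0540 CPM at passage 20 and 0.168 ± 0.0973 CPM at passage 3, SD, n = 3 each, adjusted p = 0.000587, edgeR).

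Of 8 further genes, myosin heavy and light chains and Tnni3k, 4 were tested, with 3 higher and 1 lower. Myh7b, a myosin heavy chain gene that houses a microRNA, rose 3.41-fold, to 13.7 ± 0.663 CPM at passage 20 against 3.98 ± 0.338 CPM at passage 3 (adjusted p = 2.23e-07, edgeR, SD, n = 3 each), and shares a few exon bases with Trpc4ap on the opposite strand. Of 14 genes of muscle energy supply and membrane, 7 were tested, with 4 higher, 1 lower and 2 not called. Sgca (alpha-sarcoglycan) and Cox6a2, a muscle subunit of cytochrome oxidase, were 5.99-fold and 5.53-fold higher but at 1.55 and 2.39 CPM at passage 20. Of 11 calcium handling genes, 7 were tested, of which 4 were lower and 3 did not pass. The 4 included Ryr2, the cardiac calcium release channel (1.87-fold lower), and Atp2a2, the calcium pump SERCA2 (1.37-fold lower).

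Regulators of striated muscle moved both ways. Of 20 tested, 8 were higher, 9 lower and 3 not called, with a median log2 of -0.06. Mef2c, a factor of the MEF2 family that activates sarcomere genes, was 2.68-fold higher (105 ± 3.74 CPM at passage 20 and 39.0 ± 2.63 CPM at passage 3, SD, n = 3 each), and Mef2d 2.20-fold higher. Srf, serum response factor, fell 1.72-fold, to 65.0 ± 4.72 CPM at passage 20 against 112 ± 6.28 CPM at passage 3. Twist1, which restrains muscle differentiation, fell 2.17-fold. For these 4 genes edgeR's adjusted p was at most 1.67e-06 (n = 3 per passage).

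Markers of other cells moved as well, and their part in the changes above was not tested. In the smooth muscle list, 11 of 11 were tested, 1 was higher, 8 lower and 2 not called, and the list summed to 1113 to 1151 CPM at passage 20 and 1282 to 1348 CPM at passage 3. Mylk, myosin light chain kinase, was 7.07-fold lower. Of the non-muscle paralogs, 9 of 12 were higher and 3 lower, with a sum of 6224 to 6355 CPM at passage 20 and 5308 to 5464 CPM at passage 3. Of 10 tested fibroblast genes, 8 were higher and 2 lower. Col3a1, a fibrillar collagen, was at 9361 ± 714 CPM at passage 20 and 3668 ± 76.4 CPM at passage 3 (SD, n = 3 each). In the short lists of other lineages, 1 of 5 tested endothelial genes was higher and 3 lower, 4 of 4 epithelial genes were higher (summed to 170.0 to 197 CPM at passage 20 and 84.5 to 88.2 CPM at passage 3), and 1 of 4 neural genes was higher and 2 lower. Among 4 blood genes only Cd68 had enough counts to be tested and did not pass, at 4.90 CPM at passage 20 and 4.73 CPM at passage 3.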

How the data were processed

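Total RNA, treated with DNase on the column, went into a standard Illumina library protocol at 10 µg per sample, per the labels' protocols. Per the submitters' processing notes, HISAT2 2.0.5, SAMtools, HTSeq and DESeq2 were used with GRCm38. The part each tool played, the annotation release and any use of strand are not given in the sources used. Whole-number counts per gene, 1 file per sample, were deposited by the authors and used as they stand; their log2 files and tables of the whole series were not used. Names, positions and exon lengths came from GENCODE M21 (GRCm38), which matched 53706 of 53801 identifiers; the other 95 held 0.00623% of counts.

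Counts were filtered with filterByExpr, given TMM factors (passage 20, 0.873 to 0.917; passage 3, 1.12 to 1.13) and compared in edgeR 4.0.16 under R 4.3.3 by the robust quasi-likelihood test. Benjamini-Hochberg adjustment ran over all 15143 genes, threshold 0.05. SEs are the log2 change divided by the root of the F statistic. The common biological coefficient of variation was 7.05%. On simulated counts with the depths of these libraries (14832 genes) the test recovered 52 of 67 genes with a 1.5-fold change, 62 of 64 with a 2-fold and 63 of 64 with a 4-fold change, with 8 calls among 14637 unchanged genes. Unlike the data, the simulation changed few genes, gave all genes the same dispersion and had no outlying library. It pooled genes of all levels, so these rates do not give the recovery of scarce sarcomere genes here. Counting intervals are exact binomial at 95% and, like floors, cover counting error only.

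The 36 genes and all other lists were chosen with earlier results of these data known. Their roles were assigned after the files had been read, and Tnni1 was moved from the cardiac thin filament to the skeletal isoform group after its value had been seen. The 3 motifs, the promoters shown and the neighbouring pairs were likewise chosen with the values known. Every listed gene is accounted for; values per library are given for called genes without overlap that reach 5 CPM and for genes over 20 CPM. In other lists up to 3 genes per direction with the smallest adjusted p and the most abundant gene could be named, of which 1 is not reported here; Unc45b, the remaining progenitor markers, other genes of the myosin cluster, genes lying between pairs and overlapping genes were named after their values were seen. Promoters came from RefSeq (GRCm38.p6), and coding sequences were read as the longest open frame of GENCODE transcripts and aligned with Biopython 1.88. Results were recomputed with RLE factors, with library sizes only, in DESeq2 1.42.0, in limma-voom (limma 3.58.1) and with other filters, a threshold of 0.01, a replicate block, longest-transcript lengths and each library left out.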

Additional observations from a re-analysis of the deposited data

How the results depend on the processing

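Of the recomputed log2 fold changes of single sarcomere genes, 283 kept their direction and their side of the threshold, 13 lost and 6 gained a call, and 3 turned direction: Mybpc3 to -0.059 with library sizes only and to -0.071 without passage 3 replicate 2 (with 1 library left out its range was -0.071 to 0.521), and Myom1 to -0.011 with library sizes only. With library sizes only, 3529 genes in all were called higher, against 5604. At a threshold of 0.01, 3 sarcomere genes were called lower, against 5. With 1 library left out, calls over all genes ranged from 5289 to 6103 higher and from 5244 to 6266 lower, and sarcomere calls from 9 to 12 higher and from 4 to 6 lower. The replicate block gave 5521 genes higher and 5582 lower, and 10 sarcomere genes higher and 5 lower; it changed no call of a sarcomere gene. Same-numbered libraries did not deviate together (correlations of 0.0143, -0.0273 and 0.0454 in replicates 1, 2 and 3). With 3 libraries per passage this cannot decide whether a number marks a shared culture. With the longest transcript as length, shares at passage 20 and passage 3 were 0.909% and 0.399% for cardiac actin, 0.139% and 0.131% for cardiac myosin heavy chains, 82.7% and 94.9% for slow and 14.2% and 4.52% for fast skeletal troponin T, and 10.8% and 22.8% for cardiac and 78.4% and 66.7% for slow skeletal troponin I. At passage 20 they were 0.510% for skeletal actin, 0.790% for skeletal myosin heavy chains and 3.10% for cardiac troponin T. These shifts come from the lengths alone. The 14 genes below the low-count filter had few or no counts, and the main fit gave them no fold change.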
